A study of Mus musculus with 4 samples.

Results

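In kidneys of diabetic mice that had lost the other kidney, genes of tubular injury, chemokine and acute phase genes, macrophage genes, fibrillar collagens and replication genes had higher signals than in kidneys of diabetic mice after a sham operation. Genes of proximal tubule transport, amino acid breakdown, fatty acid oxidation and respiration were mostly lower, by small amounts. For respiration genes the size of the difference depended on how the arrays were scaled. The comparison is 1 pair of arrays, OVE-uni against OVE-sham, and was described over all annotated genes: 18193 genes had a probe set with 1 gene symbol, and 11206 of them were bright enough to be described.

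OVE26 mice, on the FVB/NJ background, carry a transgene driven in the beta cells of the pancreas and develop diabetes when young. Uninephrectomy is the surgical removal of 1 kidney, and the sham operation leaves both in place. The OVE-uni array held RNA of uninephrectomised diabetic OVE26 mice and the OVE-sham array RNA of sham-operated diabetic OVE26 mice. Their nondiabetic littermates without the transgene gave the FVB-uni and FVB-sham arrays, which are used here for values side by side. All were female, operated on at 2 months of age and killed at 4.5 months, 10 weeks after surgery. Each group is 1 array of RNA pooled from 4 mice, so no value here measures the spread between animals, no p-value can be had, and differences are given with no replicate check. The RNA came from frozen pieces of perfused whole kidney, so in these bulk samples fewer cells of a type and less RNA per cell cannot be told apart. The tissue label was borne out by kidney genes: 43 of 45 measured proximal tubule transporter genes passed the brightness filter, and Umod, the most abundant urinary protein of the loop of Henle, had signals of 36353.2 on OVE-uni and 43803.9 on OVE-sham.

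When nephrons are lost, those that remain enlarge and filter more, and in a diabetic kidney this adds to a filtration that is already raised. Injured tubule cells are known to lose transport and mitochondrial genes, to switch on secreted injury proteins and intermediate filaments, and to release chemokines that draw in macrophages. Fibroblasts then lay down fibrillar collagen. These are textbook steps and are given as background for the gene groups below, not as a reading of these arrays.

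Signals are linear intensities that the authors had scaled to the same trimmed mean on each array, so each difference is relative to the other genes on the array. Differences are OVE-uni minus OVE-sham on the log2(signal + 26.4) scale, where 1 is 2-fold, and the offset makes them smaller than the ratio of signals for dim genes. A gene was represented by its brightest probe set, a set of short probes against 1 stretch of transcript. Other probe sets of the same gene served as a check. They share the RNA pool and the array, so they check the probes and not the animals.

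Most genes differed little. The Pearson correlation between the OVE-uni and OVE-sham arrays was 0.976 across 11206 genes, which are not independent replicates. The log2 differences had a median of -0.02 and an SD of 0.376 across genes, and from the 1st to the 99th percentile they ran from -0.89 to 1.13. Of all 11206 expressed genes 5333 (47.6%) were above 0 and 5868 below 0. FVB-uni minus FVB-sham had a median of 0.00, an SD of 0.319 and the corresponding range from -0.80 to 0.91. In the diabetic pair 166 genes were at least 2-fold higher, which is 1.48% of the expressed genes, and 75 were at least 2-fold lower, which is 0.669%. Centring each array on its median, the other scaling that moved this split most, gave 203 higher and 53 lower. In the nondiabetic pair 76 genes were at least 2-fold higher (0.678%) and 58 at least 2-fold lower (0.518%).

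**Figure D1:**
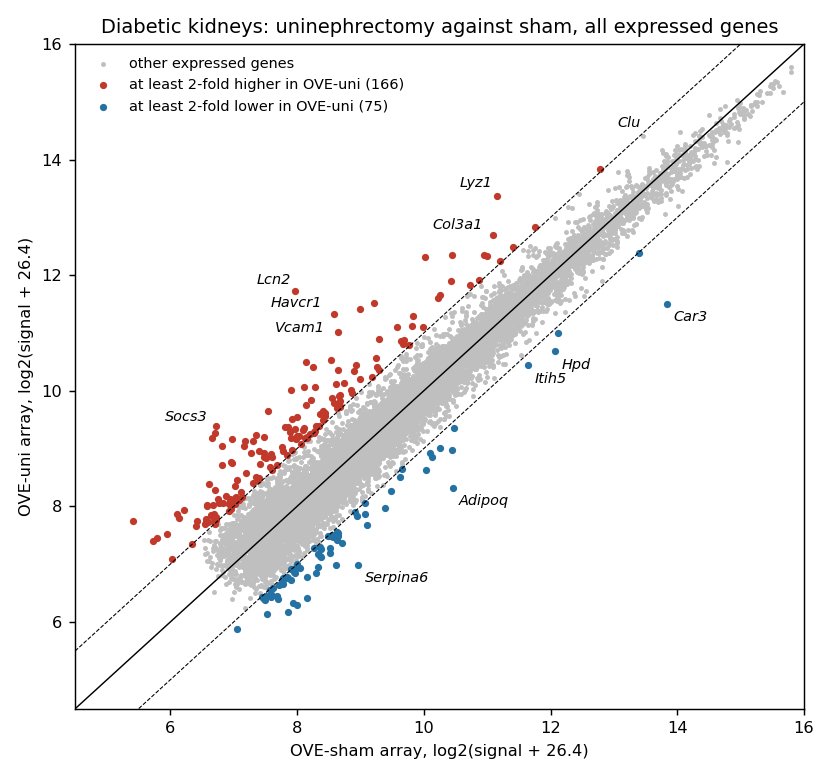
Each point is an expressed gene, with its log2(signal + 26.4) on the OVE-uni array on the vertical axis and on the OVE-sham array on the horizontal axis. The solid line marks equal signals and the dashed lines 2-fold differences; 166 red genes lie on or above the upper dashed line and 75 blue genes on or below the lower one.

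The higher calls were mostly genes whose signal on OVE-uni stood above all the other arrays. OVE-uni was the highest of the 4 arrays in 152 of the 166 genes at least 2-fold higher (91.6%), against 27.7% of all expressed genes. It was the lowest of the 4 in 63 of the 75 genes at least 2-fold lower (84.0%), against 30.3% of all. The call itself favours such a place, so the shares are a description. Calls were more frequent among dim genes: the dimmest of 10 equal bins of expression held 50 of the higher and 31 of the lower calls, and the brightest held 1 and 3.

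Agreement among probe sets grew with the size of the difference. Of the 166 genes at least 2-fold higher, 44 had other expressed probe sets, and in 36 of these (81.8%) every expressed probe set was higher. Of the 75 genes at least 2-fold lower, 10 could be checked and 7 (70.0%) had every probe set lower. Among genes within 0.25 of 0, all probe sets had the same sign in 43.7% of those above 0 and 48.1% of those below. The other probe sets of the 44 higher genes had a median log2 difference of 0.71, so they tended to show less than the brightest one. In the nondiabetic pair all probe sets agreed in 5 of 11 genes at least 2-fold higher and 6 of 11 at least 2-fold lower.

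A stricter class, called repeated below, was a gene with all its expressed probe sets on the same side and at least 2 of them past 1.5-fold. It held 75 genes higher and 36 lower, which is 1.52% and 0.731% of the 4924 genes with 2 or more expressed probe sets. In the nondiabetic pair the same class held 20 higher (0.406%) and 26 lower (0.528%). Across the 4924 genes the brightest and the second brightest probe set correlated with r = 0.392 in the diabetic pair and r = 0.172 in the nondiabetic pair. These are descriptions, since the probe sets of a gene share their RNA.

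**Figure D2:**
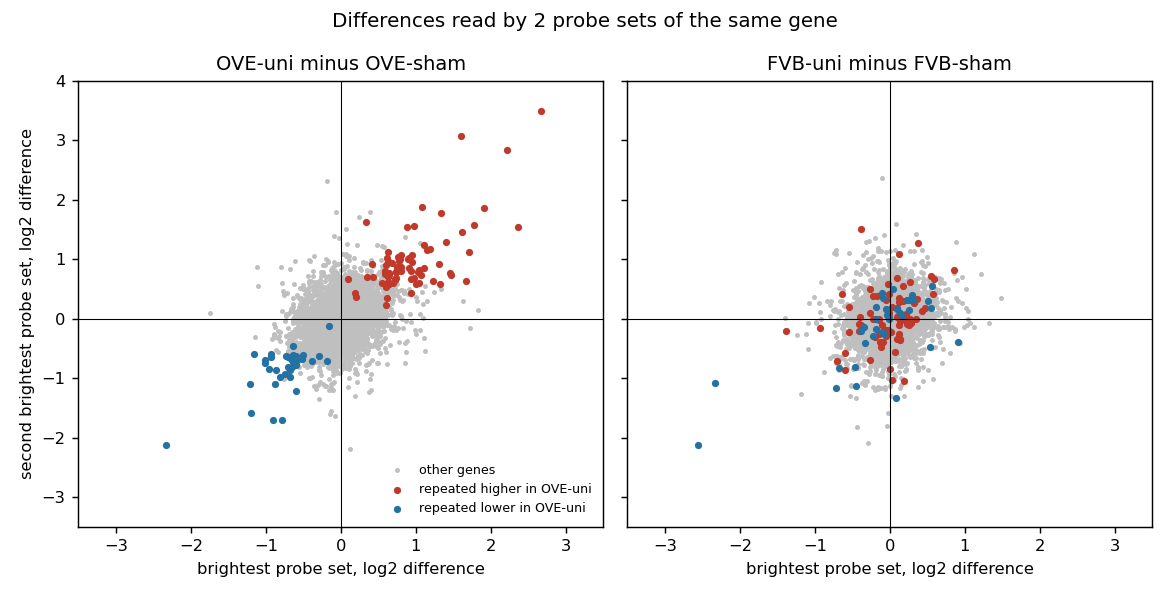
Each point is a gene with 2 or more expressed probe sets, with the log2 difference of its brightest probe set on the horizontal axis and that of its second brightest on the vertical axis, for OVE-uni minus OVE-sham on the left and FVB-uni minus FVB-sham on the right. The 75 genes repeated higher (red) and 36 repeated lower (blue) were chosen on the left panel, where they lie away from 0; on the right panel 4 of the red genes are again repeated higher and 2 repeated lower, and 3 of the blue genes are again repeated lower.

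Tubular injury genes were the most uniformly higher group. All 25 expressed members of the list had a positive difference, 12 of them at least 2-fold, and none was lower. Their median was 0.97, against -0.02 over all expressed genes and 0.03 for the same members in the nondiabetic pair. OVE-uni had the highest signal of the 4 arrays for 24 of the 25.

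Lcn2 encodes NGAL, an iron carrier that damaged tubule cells secrete into urine. It had a signal of 3374.4 on OVE-uni, against 224.5 on OVE-sham, 5.7 on FVB-uni and 41.7 on FVB-sham. Both nondiabetic values are dim, while the OVE-uni value stands far above every other array, and the difference of 3.76 was the largest of all expressed genes. Havcr1, the phagocytic receptor KIM-1 of injured proximal tubule, had 2551.6 on OVE-uni, against 359.0 on OVE-sham, 98.8 on FVB-uni and 221.0 on FVB-sham, a difference of 2.74. Its second probe set was too dim to pass the filter and read 391.6 on OVE-uni and 124.8 on OVE-sham, in the same direction.

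Vcam1 encodes an adhesion molecule for white blood cells that injured tubule cells also make. It read 2041.2 on OVE-uni, against 375.3 on OVE-sham, 437.8 on FVB-uni and 507.1 on FVB-sham. The OVE-uni array again stands alone, and 3 probe sets gave differences from 1.55 to 2.36. Cd44, a hyaluronan receptor, had 502.2 on OVE-uni and 117.1 on OVE-sham (1.88), and Krt19, a keratin of simple epithelia, had 575.0 and 137.9 (1.87). Tnfrsf12a, the receptor for the cytokine TWEAK, had 1286.1 on OVE-uni and 375.3 on OVE-sham, and its 2 probe sets gave 1.13 and 1.71.

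Cytoskeletal and secreted injury genes showed the same at high signal. Vim, the intermediate filament of mesenchymal and regenerating cells, had 3775.4 on OVE-uni, against 1352.1 on OVE-sham, 1943.0 on FVB-uni and 1626.7 on FVB-sham, with 3 probe sets between 0.63 and 1.46. Cp, the copper carrier ceruloplasmin, had 5114.9 on OVE-uni and 2015.2 on OVE-sham, and all 7 of its probe sets were higher, from 0.53 to 1.78. Clu, a secreted chaperone, reached 21780.7 on OVE-uni, against 11244.3 on OVE-sham, 11462.2 on FVB-uni and 7856.6 on FVB-sham, so its nondiabetic pair differed in the same direction by 0.54. The transcription factor Sox4 had 3831.4 on OVE-uni and 1855.3 on OVE-sham, and the keratins Krt8 and Krt18 were higher by 0.59 and 0.75. At the low end was Cdh6, a cadherin of the developing tubule, with 360.0 on OVE-uni and 356.9 on OVE-sham. The summed signal of the list was 2.04-fold in the diabetic pair and 1.09-fold in the nondiabetic pair.

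**Figure D3:**
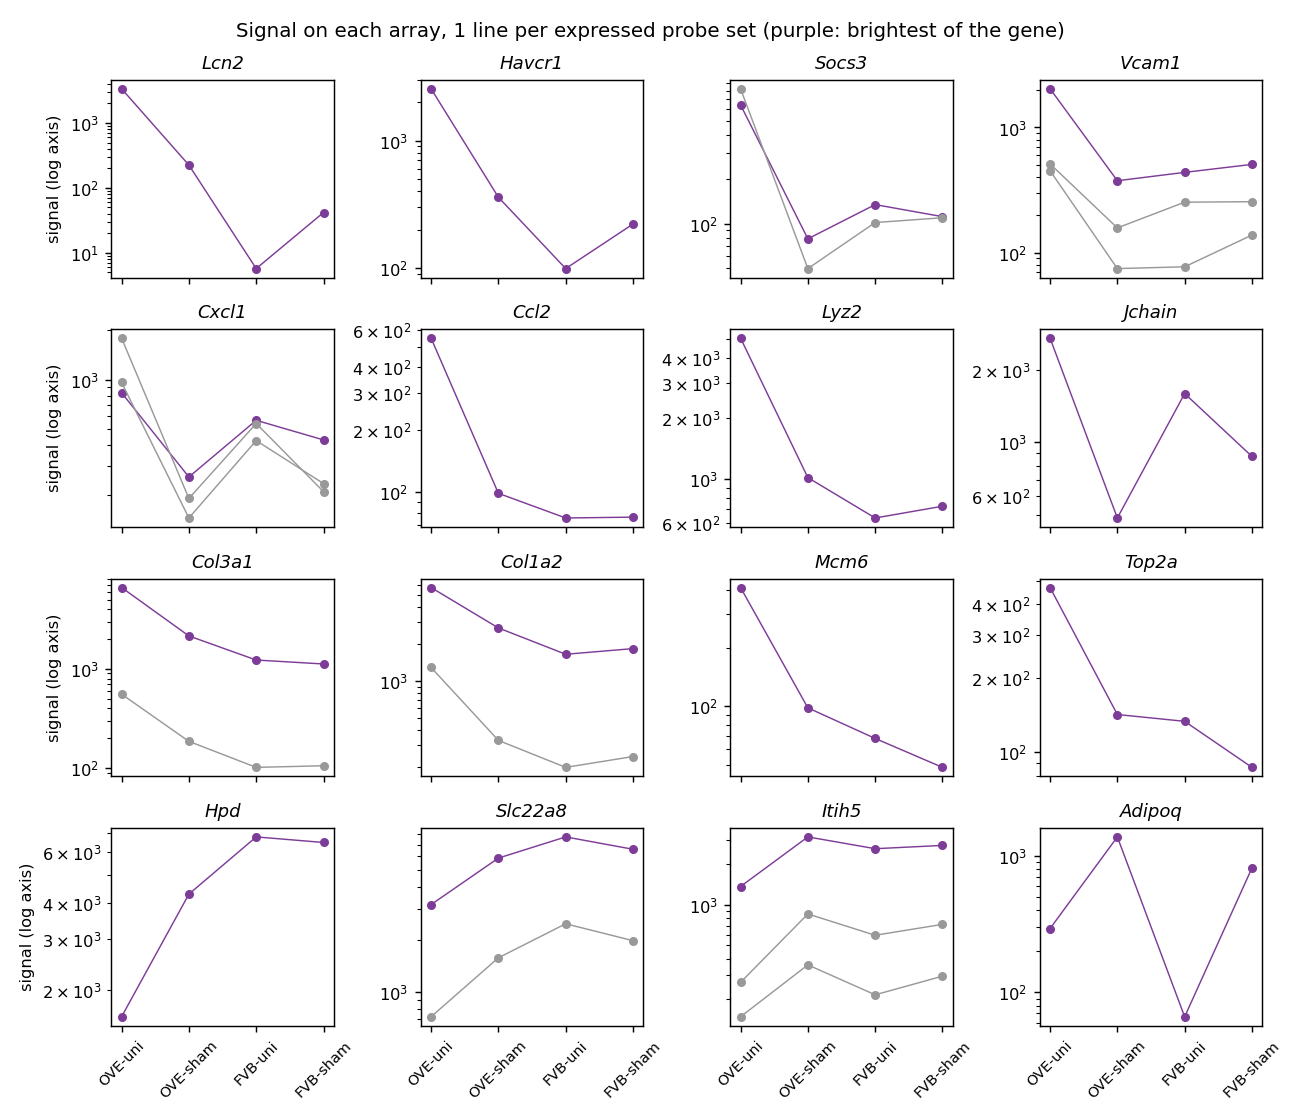
Signals on a log axis for 16 genes, with the arrays from left to right in the order OVE-uni, OVE-sham, FVB-uni and FVB-sham; each line joins the values of 1 expressed probe set, the purple line being the brightest of the gene. From Lcn2 to Top2a the OVE-uni point is the highest in each panel, as for Lcn2 at 3374.4, while Hpd, Slc22a8 and Itih5 are lowest on OVE-uni and Adipoq is low on both uninephrectomy arrays, with 293.5 and 66.2.

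Chemokines and their partners were higher in part. Of 18 expressed members, Vcam1 included, 8 were at least 2-fold higher and none 2-fold lower, with a median of 0.74 (0.11 in the nondiabetic pair), and 5 of the genes were repeated. Ccl9, which attracts myeloid cells, had 594.5 on OVE-uni, against 78.5 on OVE-sham, 85.4 on FVB-uni and 70.5 on FVB-sham. Ccl2, the main attractant of monocytes, had 549.8 on OVE-uni, against 98.9 on OVE-sham, 75.3 on FVB-uni and 76.0 on FVB-sham. In both genes the other 3 arrays lay close together near the dim end, and the differences were 2.57 and 2.20.

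Cxcl1, which attracts neutrophils, was read by 3 probe sets. Its brightest had 832.9 on OVE-uni, against 256.3 on OVE-sham, 566.5 on FVB-uni and 430.5 on FVB-sham, with OVE-sham the lowest array. The other probe sets read 1789.2 and 961.9 on OVE-uni against 189.8 and 144.4 on OVE-sham, and the differences of the 3 were 1.60, 3.07 and 2.53. In the nondiabetic pair all 3 were higher after uninephrectomy too, from 0.38 to 1.27, so Cxcl1 was repeated higher in both pairs. Csf1, the macrophage growth factor, had 635.4 on OVE-uni and 206.8 on OVE-sham, while its receptor Csf1r had 5181.9 and 5928.5, a difference of -0.19. Ccl28, an epithelial chemokine, had 1859.1 on OVE-uni and 803.1 on OVE-sham, and Ccl6, a myeloid chemokine, had 729.4 and 323.2, each with 2 probe sets higher. Not every chemokine followed: Cxcl12, a chemokine of resting stroma, had 4238.3 on OVE-uni and 5443.3 on OVE-sham, and Ccl27a had 304.9 and 424.0.

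Target genes of NF-kappaB, the transcription factor downstream of TNF and pathogen receptors, were mixed. Of 20 expressed members 4 were at least 2-fold higher and 7 had a negative difference, with a median of 0.37. All probe sets had the same sign in 2 of the 7 members with several expressed ones. Cd14, the coreceptor for bacterial lipopolysaccharide and a macrophage marker as well, had 1462.6 on OVE-uni, against 343.9 on OVE-sham, 278.0 on FVB-uni and 423.8 on FVB-sham. Bcl3 and Nfkbie encode proteins of the IkappaB family, which bind the factor, and are also its targets. They had 220.4 and 284.2 on OVE-uni, against 48.4 and 77.6 on OVE-sham. Nfkbia, the best known inhibitor of that family, went the other way with 6903.8 on OVE-uni and 7996.1 on OVE-sham, and Rela, a subunit of the factor itself, differed by -0.19. With the stricter filter, at the 75th percentile of expression, the list's median was -0.06, so its positive median rests on dimmer genes, and it was 0.19 when probe sets were averaged per gene.

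Genes of the IL-6 family and the acute phase were higher in 15 of 16 expressed members, 4 of them at least 2-fold, with a median of 0.58 against -0.22 in the nondiabetic pair. The median was 0.28 with the stricter filter. All probe sets had the same sign in 3 of the 7 members with several expressed ones. Socs3, the feedback inhibitor that STAT3 switches on, had 642.1 on OVE-uni, against 78.9 on OVE-sham, 134.8 on FVB-uni and 111.6 on FVB-sham. A second probe set read 826.9 on OVE-uni and 49.5 on OVE-sham, so the differences were 2.67 and 3.49, the highest among repeated genes when each is judged by its probe set closest to 0. The remaining Socs3 probe set, which was below the filter and is the one not marked as shared between transcripts or genes, gave 1.34.

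Fgg, Fga and Fgb encode the fibrinogen chains, which are made in quantity by liver and also by injured tubule. Fgg had 2921.0 on OVE-uni, against 569.4 on OVE-sham, 478.1 on FVB-uni and 350.1 on FVB-sham. Fga had 2180.2 on OVE-uni and 740.5 on OVE-sham. Fgb differed by 0.97 in the diabetic pair and by more, 1.35, in the nondiabetic pair. Lrg1, a secreted acute phase glycoprotein, had 299.6 on OVE-uni and 102.9 on OVE-sham, and Osmr, the receptor of oncostatin M, had 1161.8 and 652.1. Stat3 itself differed by 0.62 in its brightest probe set, but its 4 probe sets ran from -1.06 to 0.62 and so did not agree.

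The promoters of some of these genes are shown because the sequence matched by NF-kappaB or STAT factors lies in them. RefSeq sequence of build GRCm38.p6 was searched from 250 bases before each gene's start up to the start, on both strands, for the NF-kappaB motif (GGG, any 2 bases, then TTTCC) and the STAT motif TTCNNNGAA, where N is any base. Below, the matching letters are in capitals, each sequence runs 5′ to 3′ along its gene's strand, and a match may read on either strand.
Cxcl1, chr5:90891131-90891190, plus strand: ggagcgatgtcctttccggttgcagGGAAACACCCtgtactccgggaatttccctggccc
Cxcl1, chr5:90891149-90891208, plus strand: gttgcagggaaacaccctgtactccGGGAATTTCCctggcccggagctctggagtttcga
Ccl9, chr11:83578637-83578696, minus strand: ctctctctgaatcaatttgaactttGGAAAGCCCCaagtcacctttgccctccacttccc
Ubd, chr17:37193852-37193891, plus strand: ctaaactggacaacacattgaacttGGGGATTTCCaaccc
Vim, chr2:13574063-13574122, plus strand: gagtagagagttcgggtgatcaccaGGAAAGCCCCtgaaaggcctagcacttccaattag
Socs3 (STAT motif), chr11:117969487-117969545, minus strand: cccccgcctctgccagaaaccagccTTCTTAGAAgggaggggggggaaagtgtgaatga
Cxcl1 holds the NF-kappaB letters at 2 places in overlapping windows. Ubd encodes a ubiquitin-like modifier that inflammatory cytokines switch on, and it had 552.4 on OVE-uni, against 74.5 on OVE-sham, 63.2 on FVB-uni and 79.9 on FVB-sham, with the match ending a few bases before its start.

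The windows shown are from higher genes, and matches were found in lower genes too. The NF-kappaB motif was in 6 of 123 promoters of genes at least 2-fold higher (4.88%), in 2 of 64 of genes at least 2-fold lower (3.12%), in 152 of 9114 of all expressed genes (1.67%) and in 1.41% of all 32851 windows. In the repeated classes its order was the reverse, with 2 of 56 promoters of genes repeated higher (3.57%) and 2 of 30 of genes repeated lower (6.67%). The STAT motif was in 9 of the 123 (7.32%) and 7 of the 64 (10.9%), against 7.12% of expressed genes, and in 1 of 56 promoters of genes repeated higher (1.79%) and 7 of 30 of genes repeated lower (23.3%). The AP-1 motif TGANTCA was in 11 of 123 (8.94%) and 6 of 64 (9.38%), against 5.45% of expressed genes. The CCAAT letters were in 54 of 123 (43.9%) and 24 of 64 (37.5%), against 39.9%. Motifs of the transcription factors HNF1, HNF4 and SRF were searched too. That of HNF1 was in no promoter of an expressed gene. That of HNF4 was in none of the 123 and 1 of the 64 (1.56%), against 0.461%. That of SRF was in 1 of the 123 (0.813%) and none of the 64, against 0.0219%. A match shows the letters in the window and not binding, and no test was made of these shares.

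Complement genes were higher in 12 of 14 expressed members, 3 of them at least 2-fold, with a median of 0.29. Cfi, the protease that inactivates C3b, had 1012.6 on OVE-uni, against 213.7 on OVE-sham, 206.8 on FVB-uni and 181.6 on FVB-sham. The chains of C1q, which macrophages make, were all higher: C1qc by 1.26, C1qa by 1.22, and C1qb by 0.62 in its brightest probe set with its 3 probe sets between 0.62 and 1.26. Cfb, of the alternative pathway, differed by -0.38.

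Macrophage and monocyte genes made up the largest block of 2-fold calls in any list. Of 26 expressed members 15 were at least 2-fold higher and none 2-fold lower, with a median of 1.05 against 0.17 in the nondiabetic pair. Of the 4 members with several expressed probe sets 1, Lyz1, had all of them on the same side. Over all expressed genes that was so in 2494 of 4924. Most of the macrophage calls thus rest on 1 probe set each. The summed signal of all 35 measured members was 1.81-fold in the diabetic pair and 1.03-fold in the nondiabetic pair. The part of macrophage number in the injury and chemokine differences above was not tested.

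Lyz2, the macrophage lysozyme, had 5042.8 on OVE-uni, against 1010.8 on OVE-sham, 634.8 on FVB-uni and 726.8 on FVB-sham. Lyz1, a near-identical copy, had 10546.8 on OVE-uni and 2262.7 on OVE-sham, and its value cannot be separated from that of Lyz2: without probe sets marked as shared between genes it was 0.43 and not 2.21. Cd52, a surface antigen of white blood cells, had 776.1 on OVE-uni and 159.9 on OVE-sham. Tyrobp and Fcer1g, signalling adaptors of myeloid receptors, had 1048.2 and 457.7 on OVE-uni, against 284.6 and 128.8 on OVE-sham. Ctss, a lysosomal protease of antigen presenting cells, had 3212.8 on OVE-uni, against 1199.7 on OVE-sham, 1369.2 on FVB-uni and 1508.2 on FVB-sham. Ptprc, the antigen CD45 common to white blood cells, had 822.7 on OVE-uni, against 383.0 on OVE-sham, 574.0 on FVB-uni and 542.4 on FVB-sham, so part of its difference lies in a low OVE-sham value. OVE-sham was the lowest of the 4 arrays for 10 of the 26 members, and OVE-uni the highest for 21.

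Defining markers of macrophages were less clear than the list. Adgre1, which encodes F4/80, had 363.8 on OVE-uni, against 226.0 on OVE-sham, 348.5 on FVB-uni and 203.7 on FVB-sham, so it was higher after uninephrectomy by 0.63 with diabetes and 0.70 without. Csf1r, as given above, differed by -0.19. Mrc1, the mannose receptor, differed by 0.64, and Cd68, Itgam, Itgax and Cd163 lay below the brightness filter. Laptm5, a lysosomal protein of white blood cells, went against the list at -0.80 in its brightest probe set, but its 3 probe sets ran from -0.80 to 0.86 and their mean was 0.18. Neutrophil genes were not bright enough to follow, with 1 of 12 measured members expressed.

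Jchain, Igha and Igkv8-30, named because they were among the highest in the diabetic pair, were higher in both pairs. Jchain, which joins secreted IgA and IgM, had 2699.9 on OVE-uni, against 486.0 on OVE-sham, 1591.1 on FVB-uni and 873.8 on FVB-sham. Igha, the heavy chain of IgA, had 5204.0 on OVE-uni, against 1369.9 on OVE-sham, 4288.1 on FVB-uni and 2352.2 on FVB-sham. Igkv8-30, a light chain segment, had 1334.7 on OVE-uni, against 278.6 on OVE-sham, 866.0 on FVB-uni and 377.3 on FVB-sham. All 3 had their lowest signal on OVE-sham and their next highest on FVB-uni, and their differences were 2.41, 1.91 and 2.16 with diabetes and 0.85, 0.86 and 1.14 without. Of 23 measured markers of lymphocytes and plasma cells 5 were expressed, and the defining T and B cell markers were below the filter.

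MHC and interferon genes were higher by less. Among MHC genes 11 of 12 were above 0, with a median of 0.25. OVE-uni was the highest array for 7 of them and OVE-sham the lowest for 9. H2-Aa, a class II chain of antigen presenting cells, had 5194.7 on OVE-uni, against 1957.4 on OVE-sham, 3352.7 on FVB-uni and 2679.8 on FVB-sham, and its 3 probe sets gave 1.28 to 1.40. Cd74, the class II invariant chain, had 1482.1 on OVE-uni and 784.2 on OVE-sham. Of 29 interferon response genes 2 were at least 2-fold higher and 1 at least 2-fold lower, with a median of 0.25. The higher ones were Oas2, an antiviral enzyme, at 1.14 and Gbp2, a GTPase, at 1.04, while Ifi27l2a had 461.4 on OVE-uni and 1073.2 on OVE-sham.

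Genes of fibrillar matrix were higher in 33 of 36 expressed members, 7 of them at least 2-fold, with a median of 0.52 against -0.01 in the nondiabetic pair. OVE-uni was the highest array for 31 of the 36. Col3a1, a main fibrillar collagen, had 6609.8 on OVE-uni, against 2150.2 on OVE-sham, 1229.7 on FVB-uni and 1122.0 on FVB-sham, and its 2 probe sets gave 1.45 and 1.61. Col1a2 had 5750.7 on OVE-uni, against 2700.1 on OVE-sham, 1649.5 on FVB-uni and 1833.3 on FVB-sham, with 1.08 and 1.89. In both collagens OVE-sham already lay above the nondiabetic arrays. Col1a1, which pairs with Col1a2 in collagen I, was dimmer at 502.2 on OVE-uni and 86.8 on OVE-sham (2.22).

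Other collagens and matrix builders were among the higher calls. Col12a1, a collagen that sits on fibrils, had 1427.3 on OVE-uni, against 256.3 on OVE-sham, 206.0 on FVB-uni and 185.9 on FVB-sham, a difference of 2.36. Col5a2 had 704.7 on OVE-uni and 217.4 on OVE-sham, and Lox, the enzyme that cross-links collagen, had 547.3 and 227.2. Thbs2 (1.32), Postn (0.98), Fn1 (0.92) and Mgp (0.92), all secreted matrix proteins, were higher to a lesser degree. At the low end of the list were the fibulins Fbln2 at -0.45 and Fbln5 at -0.46, and Dcn, a proteoglycan, differed by 0.11.

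Basement membrane genes, in contrast to fibrillar ones, had a median of 0.04 with 14 of 24 above 0 and none past 2-fold. Col4a1, of the type IV network, differed by 0.72 and Itga3, a laminin receptor subunit, by -0.70. Of 13 expressed matrix protease and inhibitor genes 1 was at least 2-fold higher, Ctss, and the median was 0.34, which turned to -0.04 with the stricter filter. The inhibitor Timp1 had 396.0 on OVE-uni, against 74.0 on OVE-sham, 4.0 on FVB-uni and 53.7 on FVB-sham, but its mean was below the filter and it is not among the counts. Among smooth muscle and fibroblast markers the median was 0.12. S100a4, a calcium binding protein of fibroblasts and white blood cells, had 597.8 on OVE-uni and 211.3 on OVE-sham, and Acta2, the actin of smooth muscle and myofibroblasts, had 5431.2 and 3171.5, while the pericyte receptor Pdgfrb differed by 0.26.

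Growth factor genes had a median of -0.18, and -0.09 with quantile normalisation. Below 0 were 20 of the 33, not far from the share over all expressed genes, 5868 of 11206. Egf, made by the distal tubule, had 20209.8 on OVE-uni, against 31757.9 on OVE-sham, 38379.2 on FVB-uni and 36518.8 on FVB-sham. Igfbp3, a carrier of insulin-like growth factors, had 2597.4 on OVE-uni, against 4766.3 on OVE-sham, 4609.7 on FVB-uni and 4983.6 on FVB-sham, and both its probe sets gave -0.87. For both genes OVE-uni was the lowest array and the other 3 lay closer together. Tgfb1, often named as a driver of fibrosis, was dim and differed by -0.32.

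Cell cycle genes were higher as a group. Replication genes were above 0 in 24 of 26 expressed members, 6 of them at least 2-fold, with a median of 0.53 (0.13 in the nondiabetic pair). Mcm6 and Mcm5, parts of the helicase that opens DNA, had 411.8 and 918.9 on OVE-uni, against 98.3 and 350.4 on OVE-sham. Rrm2, the subunit of ribonucleotide reductase made in S phase, had 1337.4 on OVE-uni, against 586.6 on OVE-sham, 382.6 on FVB-uni and 294.2 on FVB-sham, and its 3 probe sets gave 0.56 to 1.16. Hells, a chromatin remodeller, differed by 1.72 in one probe set and -0.16 in the other. Mitotic genes were above 0 in 18 of 19 expressed members, 4 of them at least 2-fold. In 3 of the 6 mitotic genes with several expressed probe sets, all had the same sign.

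The mitotic list had a median of 0.68 in the diabetic pair and of 0.49 in the nondiabetic pair, and with the stricter filter that of the diabetic pair was 0.27. Top2a, which untangles DNA, had 468.6 on OVE-uni, against 142.0 on OVE-sham, 133.2 on FVB-uni and 86.4 on FVB-sham. Mki67, the proliferation antigen Ki-67, had 451.1 on OVE-uni, against 215.4 on OVE-sham, 147.7 on FVB-uni and 69.4 on FVB-sham, which is 0.98 and 0.86 in the 2 pairs. Mad2l1, a spindle checkpoint protein, had 725.5 on OVE-uni and 229.7 on OVE-sham. Of 41 measured mitotic genes 22 were below the filter, so the list is told by its brighter members.

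Inhibitors of the cycle differed in direction. Cdkn1a, the inhibitor p21, had 1437.9 on OVE-uni, against 814.9 on OVE-sham, 224.7 on FVB-uni and 301.9 on FVB-sham, and its 2 probe sets gave 0.80 and 0.81. Cdkn1c, the inhibitor p57 of podocytes, had 633.9 on OVE-uni and 1190.5 on OVE-sham. Over the 23 genes of p53 and the inhibitors the median was 0.18 with none past 2-fold. Immediate early genes had a median of 0.32 with 3 of 24 at least 2-fold higher: Atf3 (459.5 on OVE-uni and 151.4 on OVE-sham), Myc (553.7 and 214.0) and Klf6 (1752.8 and 848.2, all 4 probe sets higher). Dusp1, a phosphatase of the same class, differed by -0.35.

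**Figure D4:**
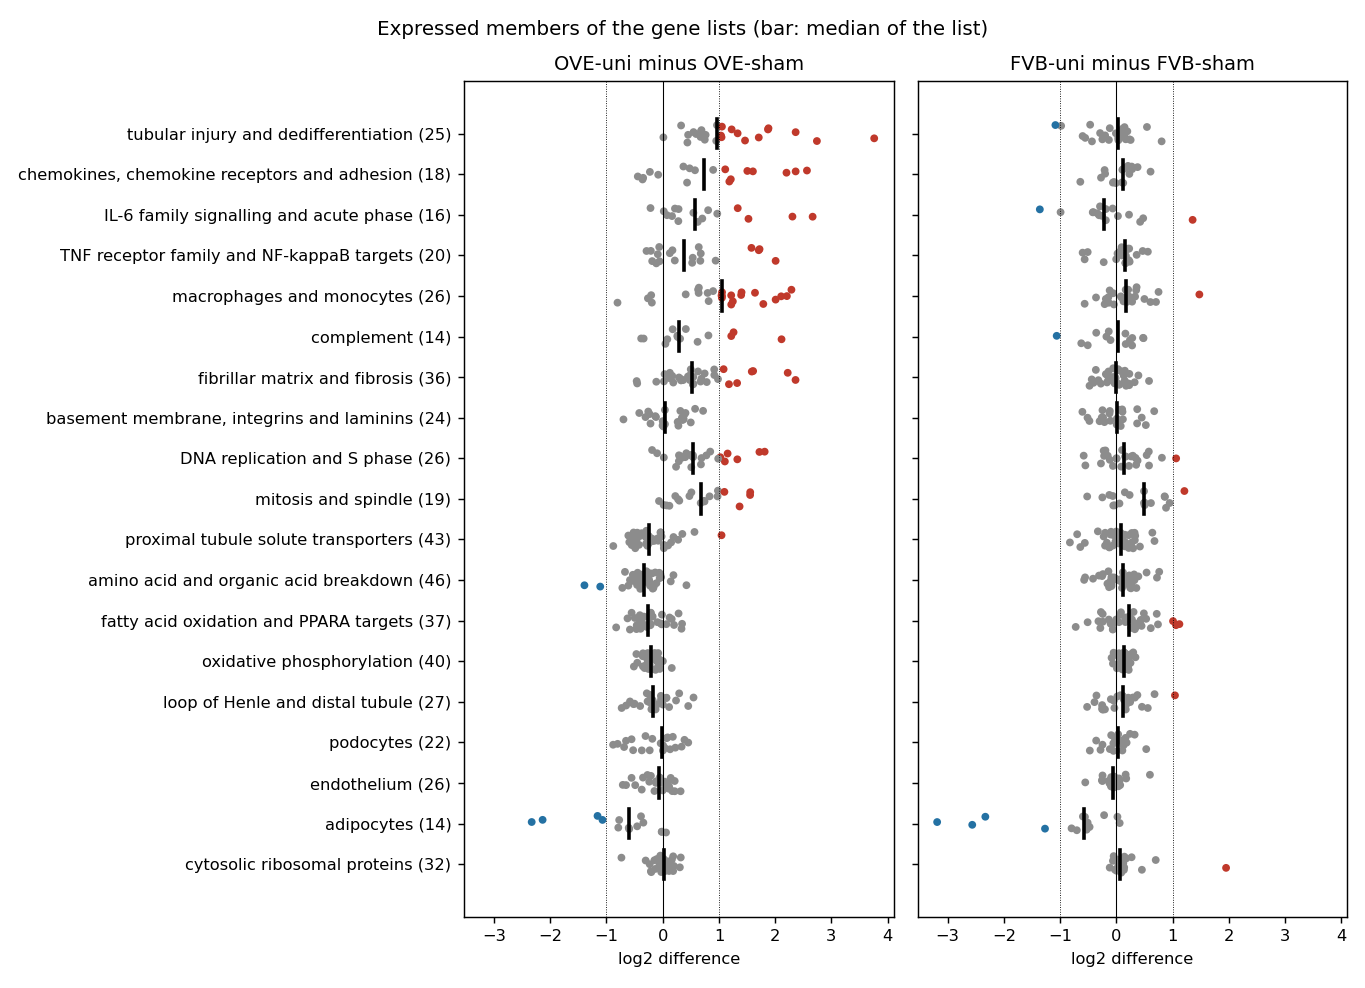
Each point is an expressed member of a gene list, with its log2 difference on the horizontal axis, for OVE-uni minus OVE-sham on the left and FVB-uni minus FVB-sham on the right; red and blue mark differences of at least 2-fold and the bar is the list's median. Injury genes have a median of 0.97 on the left and 0.03 on the right, oxidative phosphorylation genes -0.20 and 0.14. Most adipocyte genes lie below 0 in both panels, with 1 above 0 on the left and 2 on the right.

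Proximal tubule genes were lower by small amounts across most of the lists. Of 43 transporter genes 34 had a negative difference, with a median of -0.25 and none lower by 2-fold, against a median of 0.08 in the nondiabetic pair. In 17 of the 18 with several expressed probe sets, all probe sets had the same sign. OVE-uni was the lowest of the 4 arrays for 26 of the 43.

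Slc22a8, the basolateral organic anion transporter OAT3, had 3171.8 on OVE-uni, against 5856.9 on OVE-sham, 7744.3 on FVB-uni and 6579.2 on FVB-sham, and its 2 probe sets gave -0.88 and -1.09. Slc34a1, the main phosphate transporter, had 11212.7 on OVE-uni, against 17135.9 on OVE-sham, 16823.0 on FVB-uni and 13934.6 on FVB-sham. Slc5a2, the glucose transporter SGLT2, had 6820.5 on OVE-uni, against 10089.5 on OVE-sham, 10323.5 on FVB-uni and 9531.4 on FVB-sham. In all 3 OVE-uni lay below every other array. The exceptions were Slc22a30, an organic anion transporter, at 1.05 and Slc13a1, a sulphate transporter, with 11295.1 on OVE-uni and 7625.6 on OVE-sham. Slc22a6, the anion transporter OAT1, hardly differed with 3944.7 and 4052.2.

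Endocytosis and brush border genes had a median of -0.22 with 18 of 25 below 0. This list also holds Umod, named above as a loop of Henle gene, which is counted with the loop and distal tubule genes too. Cubn, a receptor that takes up filtered protein, had 10156.8 on OVE-uni, against 15186.9 on OVE-sham, 12917.0 on FVB-uni and 15495.5 on FVB-sham, and both probe sets gave -0.58. Its partner Lrp2, megalin, differed by -0.35 and the transcription factor Hnf4a by -0.42, with all 4 Hnf4a probe sets below 0. The peptidases Enpep and Anpep of the same brush border were both higher by 0.34.

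Breakdown of amino acids was lower in 43 of 46 expressed genes, 2 of them at least 2-fold, with a median of -0.34 against 0.11 in the nondiabetic pair. OVE-uni was the lowest of the 4 arrays for 36 of the 46. Hpd, which degrades a tyrosine product, had 1618.3 on OVE-uni, against 4291.0 on OVE-sham, 6762.9 on FVB-uni and 6470.1 on FVB-sham. Bhmt, which turns homocysteine into methionine, had 2022.2 on OVE-uni, against 4399.7 on OVE-sham, 5232.5 on FVB-uni and 3165.1 on FVB-sham. Asl, an enzyme of arginine synthesis, had 2584.0 on OVE-uni and 4268.2 on OVE-sham, and Sardh, which breaks down sarcosine, was lower by 0.67 and 0.68 in its 2 probe sets. The differences of Hpd and Bhmt, -1.39 and -1.11, stood apart from the rest of the list, which reached -0.72.

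Mitochondrial genes were lower by amounts like those of the transporters. Fatty acid oxidation genes were below 0 in 30 of 37, with a median of -0.26 against 0.23 in the nondiabetic pair, and none reached 2-fold. Acsm1, a medium chain acyl-CoA synthetase, had 3368.8 on OVE-uni and 6001.7 on OVE-sham, and Acaa1b, a peroxisomal thiolase, had 15777.7 and 24365.2. Ppara, the receptor that drives many of these genes, differed by -0.55 with 3 probe sets from -0.55 to -0.10. Angptl4, a target of that receptor, was at 0.20 in the diabetic and 1.06 in the nondiabetic pair. Respiratory chain genes were below 0 in 38 of 40, with a range of -0.51 to 0.16 and a median of -0.20. In the nondiabetic pair 37 of the same 40 were above 0. With quantile normalisation the median of the respiratory genes in the diabetic pair was -0.05, close to the -0.018 of all expressed genes. OVE-uni was the lowest array for 20 of the 40 respiratory genes and 17 of the 37 fatty acid oxidation genes, while OVE-sham was the highest for 26 and 21. The summed respiratory signal was 777175 on OVE-uni, against 885299 on OVE-sham, 868968 on FVB-uni and 785778 on FVB-sham, so OVE-uni lay close to FVB-sham. The largest was Sdhc, a subunit of succinate dehydrogenase, with 5250.3 on OVE-uni, against 7504.6 on OVE-sham, 7436.3 on FVB-uni and 5874.0 on FVB-sham.

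Some measures of the arrays moved with these small differences. The 18 hybridisation spike-ins, bacterial transcripts added in fixed amount, were all lower on OVE-uni than on OVE-sham, with a median of -0.41, and all higher on FVB-uni than on FVB-sham, with a median of 0.30. The 24 labelling spike-ins were all lower on OVE-uni too, with a median of -0.24. The size of -0.41 is larger than the median of each of these tubular and mitochondrial lists. The lists' medians in the nondiabetic pair were above 0, like the spike-ins, except that of endocytosis and brush border genes (-0.03). The brightest of 10 bins of genes had a median of -0.07, with quartiles of -0.22 and 0.08, and 0.06 in the nondiabetic pair. The 3 probe sets for 18S ribosomal RNA were 1.43-fold in the diabetic and 1.02-fold in the nondiabetic pair. The ratio of 3′ to 5′ signal of actin, which grows as RNA is broken, was 3.38 on OVE-uni, 3.72 on OVE-sham, 3.49 on FVB-uni and 2.78 on FVB-sham. The part of these measures in the results was not tested. Cytosolic ribosomal protein genes had a median of 0.03.

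Drug and steroid metabolism was divided. Of 36 expressed genes 4 were at least 2-fold higher and 1 at least 2-fold lower, with a median of -0.03. Cyp2d12, a cytochrome P450, had 369.4 on OVE-uni, against 1024.0 on OVE-sham, 1342.2 on FVB-uni and 1542.5 on FVB-sham. Cyp27b1, which makes active vitamin D, went the other way with 817.7 on OVE-uni, against 385.5 on OVE-sham, 138.5 on FVB-uni and 184.9 on FVB-sham. Aldh1a7, an aldehyde dehydrogenase, had 2492.6 on OVE-uni, against 885.0 on OVE-sham, 649.0 on FVB-uni and 306.4 on FVB-sham, so it was at least 2-fold higher in both pairs. Fmo2, a flavin monooxygenase, was lower in all 4 probe sets, from -0.55 to -0.92.

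Clock genes were below 0 in 13 of 17, with a median of -0.30 against 0.06 in the nondiabetic pair. Dbp, an output gene of the clock, had 3028.8 on OVE-uni, against 4971.0 on OVE-sham, 3571.2 on FVB-uni and 5736.5 on FVB-sham, so it was lower in both pairs by like amounts. Per3, a repressor in the clock, was below 0 in all 4 probe sets. Its brightest gave -0.38 with diabetes and -0.45 without, where its probe sets ran from -1.13 to 0.02. The time of day at which mice were killed is not given in the sources used here.

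Hypoxia and vessel genes had a median of -0.13. Hif3a was at least 2-fold higher, and its value of 1.66 comes from a low OVE-sham signal: 149.1 on OVE-uni, against 29.1 on OVE-sham, 186.5 on FVB-uni and 193.8 on FVB-sham. Kdr, the endothelial VEGF receptor, had 661.0 on OVE-uni and 1097.8 on OVE-sham, and Epas1, which encodes HIF-2 alpha, had 6509.2 and 9443.2. Agtr1a, the angiotensin receptor, had 1155.2 on OVE-uni and 1869.5 on OVE-sham. Glycolysis (median -0.11), antioxidant (-0.08), lipid synthesis (0.06), chaperone (0.11), lysosome and proteasome (0.05) and ribosome biogenesis genes (0.05) lay near the median of all genes.

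Among later nephron segments, loop and distal tubule genes leaned to the lower side. Loop and distal tubule genes had a median of -0.18 with 19 of 27 below 0, and OVE-uni was the lowest array for 16. Slc12a3, the thiazide-sensitive salt transporter, had 4305.1 on OVE-uni, against 6456.6 on OVE-sham, 8022.9 on FVB-uni and 7411.3 on FVB-sham. Collecting duct genes had a median of -0.08, near that of all genes, with 10 of 28 above 0. Of 6 with several expressed probe sets, 2 had all on the same side. Of the 28, 3 were lower by 1.5-fold, against 488 of all 11206 expressed genes. These 3 are genes of intercalated cells. No other expressed member was lower by that much, the list's other intercalated cell genes included. Slc4a1, the basolateral anion exchanger, which is on the erythroid and blood list too, had 1024.7 on OVE-uni and 1724.1 on OVE-sham. In the nondiabetic pair Slc4a1 was lower too, at -0.34. Foxi1, the transcription factor of these cells, had 350.7 and 575.4. Slc26a4, the apical exchanger pendrin, had 1260.7 and 1986.6. Aqp2, the water channel of principal cells, had 3583.3 on OVE-uni and 3129.4 on OVE-sham.

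Podocyte and endothelial lists had medians near that of all genes, at -0.02 and -0.06. Among podocyte genes 11 of 22 lay on each side of 0, but 4 were lower by 1.5-fold and none higher by that much. Of 26 endothelial genes 2 were lower by 1.5-fold and none higher. Over all 11206 expressed genes 488 were lower and 561 higher by that much. With the stricter filter the podocyte median was -0.18. The podocyte list also holds Enpep, named above as a gene of the brush border. Nphs1, the gene of the slit diaphragm protein nephrin, had 151.8 on OVE-uni, against 253.9 on OVE-sham, 420.5 on FVB-uni and 381.5 on FVB-sham, and Synpo, a podocyte actin regulator, had 550.1 and 901.7 in the diabetic pair. Wt1, the podocyte transcription factor, differed by 0.18 in the other direction. Pecam1 differed by -0.65 and Cdh5, another junction protein of endothelium, by -0.12.

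Adipocyte genes were lower after uninephrectomy in both pairs. Of 14 expressed members 13 were below 0 and 4 at least 2-fold lower, with a median of -0.60 with diabetes and -0.58 without. Adipoq, the fat cell hormone adiponectin, had 293.5 on OVE-uni, against 1379.8 on OVE-sham, 66.2 on FVB-uni and 817.3 on FVB-sham. Car3, a carbonic anhydrase abundant in fat, had 2874.3 on OVE-uni, against 14557.5 on OVE-sham, 1228.9 on FVB-uni and 7397.7 on FVB-sham, and a second probe set gave -2.13 and -2.12 in the 2 pairs. The remaining expressed Car3 probe set was dim, with 125.8 on OVE-uni, against 133.9 on OVE-sham, 149.0 on FVB-uni and 134.9 on FVB-sham. For Adipoq and the brightest Car3 probe set both uninephrectomy arrays lay below both sham arrays. The dim Car3 probe set did not share this, at -0.08 with diabetes and 0.12 without. Fabp4, a fatty acid carrier of fat cells and of endothelium, had 9898.8 on OVE-uni and 10019.9 on OVE-sham. The amount of fat tissue taken with each kidney was not measured.

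The lists held 975 of the 11206 expressed genes, 75 of the 166 genes at least 2-fold higher and 8 of the 75 at least 2-fold lower. The remaining 91 and 67 are on no list. Among the 91, Ankrd1, a stress-responsive nuclear cofactor, had 404.4 on OVE-uni, against 99.4 on OVE-sham, 43.9 on FVB-uni and 66.7 on FVB-sham, with both probe sets above 1.5. Just under 2-fold, Lgals1, a galectin on no list, had 10830.0 on OVE-uni, against 5588.3 on OVE-sham, 4528.8 on FVB-uni and 4171.0 on FVB-sham, and its 2 probe sets both gave 0.95. Pkia, an inhibitor of protein kinase A, was also just under 2-fold at 0.97, with 1531.5 on OVE-uni and 768.9 on OVE-sham. Dcdc2a, a doublecortin family member, differed by 1.83 in one probe set and 0.15 in the other, so its call was not repeated. Dagla, a diacylglycerol lipase, had 188.1 on OVE-uni, against 16.4 on OVE-sham, 231.1 on FVB-uni and 218.5 on FVB-sham, so its difference of 2.33 rests on a low OVE-sham signal, and with the offset at the 40th percentile it was 1.55.

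On the lower side Itih5, of a family of hyaluronan binding proteins, was the firmest gene by probe sets: 1363.8 on OVE-uni, against 3173.8 on OVE-sham, 2596.3 on FVB-uni and 2746.2 on FVB-sham, with 3 probe sets from -1.59 to -1.14. Ndrg4 had 206.1 on OVE-uni and 510.1 on OVE-sham, and its difference in the nondiabetic pair was -0.72. Gabarapl1, an autophagy protein, was the brightest of the named lower genes outside the lists with 9384.4 on OVE-uni, against 16474.1 on OVE-sham, 13533.4 on FVB-uni and 13652.6 on FVB-sham. Bbox1, of carnitine synthesis, had 302.4 on OVE-uni, against 587.8 on OVE-sham, 299.8 on FVB-uni and 195.0 on FVB-sham, so OVE-sham was the array that stood out. Serpina6, which encodes the carrier of glucocorticoids in blood, was of the same kind, with 101.0 on OVE-uni, against 473.6 on OVE-sham, 54.9 on FVB-uni and 69.9 on FVB-sham. Ang, a ribonuclease, had a difference of -1.75 that its other probe set, at 0.10, did not share.

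Some of the higher genes lie next to each other in the genome. Among 11165 pairs of neighbouring expressed genes 11 had both members at least 2-fold higher and 1 both lower. Of single expressed genes 1.48% were called higher and 0.669% lower, and the number of such pairs to be had by chance was not worked out. The pairs included the collagens Col3a1 and Col5a2, the chemokines Ccl9 and Ccl6, the fibrinogens Fgg and Fga, C1qc and C1qa, and Ms4a7 and Ms4a6c. The lysozymes Lyz2 and Lyz1 are counted as a pair too, but their values cannot be separated. Grem1, a secreted inhibitor of bone morphogenetic proteins, and its neighbour Scg5, a chaperone of secretory granules, are not a family, and they had 644.9 and 3101.6 on OVE-uni, against 288.3 and 1168.0 on OVE-sham.

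The nondiabetic pair, whose arrays are not shared with the diabetic pair, shared a minority of the calls. Of the 166 genes at least 2-fold higher with diabetes, 8 (4.8%) were also at least 2-fold higher in the nondiabetic pair, against 0.678% of all expressed genes, and 5 (3.0%) were at least 2-fold lower, against 0.518%. Their median there was 0.09, and 100 were above 0. Of the 75 lower genes 6 (8.0%) were also lower and 9 (12%) were higher, with a median of -0.01. Calls in the same and in the opposite direction were thus both more frequent among the called genes than among all genes. Across all expressed genes the 2 differences had a Pearson correlation of -0.016, a description across genes. Of the 75 repeated higher genes 4 were repeated higher in the nondiabetic pair, and of the 36 repeated lower genes 3 were repeated lower. With 1 array per group the difference between the 2 pairs leaves no residual and was not tested.

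**Figure D5:**
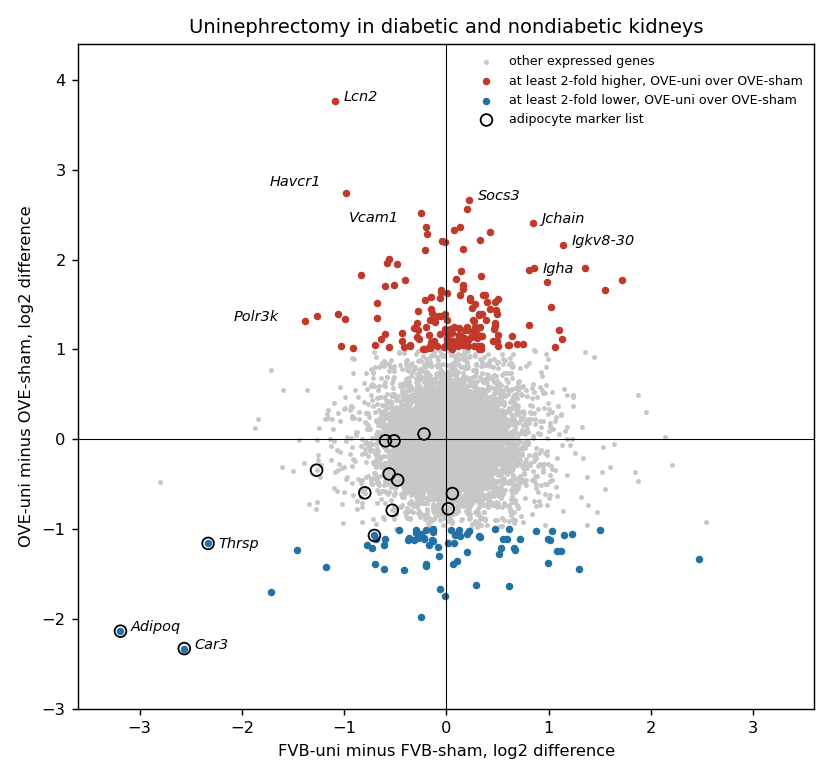
Each point is an expressed gene, with OVE-uni minus OVE-sham on the vertical axis and FVB-uni minus FVB-sham on the horizontal axis, both as log2 differences; red and blue mark genes at least 2-fold different in the diabetic pair and circles the adipocyte marker list. On the horizontal axis 8 red genes are at least 2-fold higher and 5 lower, and 6 blue genes are at least 2-fold lower and 9 higher, while Adipoq and Car3 lie far below 0 on both axes and Jchain and Igkv8-30 above 0 on both.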

How the data were processed

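The deposited table holds linear intensity values of 45101 probe sets on 4 Affymetrix 3′ arrays, 1 per group. Per the labels' protocols, RNA of 4 female mice was pooled per group and 100 ng was labelled with the 3′ IVT Express Kit. The software behind the values is not stated in the labels. Intensities deposited by the authors had a trimmed mean (2% off each end) of 500.0 on every array. Of the probe sets, 64 are controls. The platform annotation of 2016 gave 1 symbol for 34945, several for 932 and none for 9160, and the last 2 kinds were left out. Symbols were checked through Entrez numbers in a RefSeq table of GRCm38.p6, which held 34741.

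Values were set as log2(value + 26.4), the 20th percentile. A gene is its probe set with the highest mean and counts as expressed from 7.06, the median over probe sets that are not controls. With 1 array per group no test was made; calls are 2-fold differences. The number of arrays limits the precision.

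The comparison and the 45 gene lists were chosen with earlier results of these data known. Named genes are the 15 highest and 15 lowest with several agreeing probe sets (ranked by the one closest to 0), the 12 highest and 12 lowest with 1 probe set, list members, and the 6 highest and 6 lowest in the difference between the diabetic and nondiabetic pairs; neighbouring genes were named after their values were seen. Alternatives were quantile normalisation, median centring, 2 other offsets, 2 other filters, the mean of probe sets, probe sets counted singly, 2 other thresholds and, chosen after seeing the data, leaving out probe sets shared between transcripts or genes. Counting was tested on simulated data. Python 3.11.15, pandas 2.3.3, numpy 2.4.6 and matplotlib 3.10.9 were used.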

Additional observations from a re-analysis of the deposited data

Results flagged for a closer look

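In 3 named genes the diabetic and the nondiabetic pair differed by at least 2-fold in opposite directions, and the difference between the pairs was not tested. Over all expressed genes this held for 5 of the 166 higher and 9 of the 75 lower genes. Of the 3, Polr3k was named by its difference between the pairs, so its opposite signs are partly a matter of that choice. Lcn2 differed by 3.76 with diabetes and -1.09 without, where both signals on FVB-uni and FVB-sham were dim (5.7 and 41.7), so that the size is set by the offset. Polr3k, a subunit of RNA polymerase III, differed by 1.32 with diabetes and -1.39 without, and by 0.59 with diabetes when shared probe sets were left out. Its other probe sets gave 0.59, 0.62 and 0.61 in the diabetic pair but -0.20, 0.10 and -0.46 in the nondiabetic pair. The transcript 1700128F08Rik differed by -1.44 with diabetes and 1.30 without, on 1 probe set.

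Outside the gene measurements, the 3 control probe sets for 18S ribosomal RNA had a geometric mean on OVE-uni 1.43-fold that on OVE-sham, against 1.02-fold in the nondiabetic pair.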

How the results depend on the processing

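The main counts were 166 genes at least 2-fold higher and 75 lower, and 75 repeated higher and 36 repeated lower. Lower calls were the less stable ones: an offset of 1 gave 114 and an offset at the 40th percentile 34, with 21 repeated lower. Median centring gave 203 higher and 53 lower, and 108 and 16 repeated. Without an expression filter 577 were higher and 857 lower, and 173 and 222 repeated; with the stricter filter 46 and 14, and 27 and 13 repeated. Probe sets counted singly gave 240 higher and 133 lower. At 1.5-fold 561 were higher and 488 lower, and at 4-fold 18 and 2, with 4 and 1 repeated. The list medians of matrix proteases and of NF-kappaB targets changed sign under the stricter filter, to -0.04 and -0.06, and Dennd6b, at -1.62 in the main setting, became 0.30 without shared probe sets, an alternative chosen after seeing the data. Of the 478 values of named genes over all alternatives, 435 stayed within the spread between probe sets, and 2 changed sign: that of Dennd6b and that of Laptm5, from -0.80 to 0.18 with the mean of its probe sets. The 2 other filters do not alter a gene's value. Median centring shifts every gene by the same amount, which was smaller than that spread. The 60 values of each of these settings were thus bound to stay within it. Of 326 list medians 13 changed sign, in 7 lists; 11 of these were medians within 0.2 of 0 in the main setting (cytochrome P450, sex and hormone responsive, podocyte, endothelial and urothelial genes). The medians of IL-6 and acute phase genes and of mitotic genes became 0.28 and 0.27 under the stricter filter. That of oxidative phosphorylation genes, -0.20 in the main setting, was -0.05 with quantile normalisation and -0.12 with median centring. Among genes below the filter 5.88% were at least 2-fold higher and 11.2% lower, with OVE-uni having the lower 20th percentile of signal (23.3 against 29.8), so brightness limits what dim genes can show. No paired analysis was possible because each group is 1 array. The causes of these shifts were not tested.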

Other observations

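Of 3155 expressed probe sets with several gene symbols or none, 26 were at least 2-fold higher and 62 lower on OVE-uni than on OVE-sham. Lower calls were thus the more frequent here. Among the 11206 expressed genes with 1 symbol the balance was the reverse, with 1.48% higher and 0.669% lower. The excess of higher calls therefore holds for named genes above the filter. The probe sets with several symbols or none enter no count above.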
